A study of Mus musculus with 9 samples.

Results

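Of 483 genes that the array's annotation names as microRNA genes, 85 (17.6%) had a mean over the 9 arrays above the median of all 22180 genes, which was 6.70 on the log2 scale, and these 85 bright microRNA genes are described here. A microRNA gene was any gene whose symbol starts with Mir and a digit or with Mirlet, 1 probe set stood for each gene (the one with the highest mean), and probe sets listed with several symbols were left out. The level over all arrays therefore chose the genes and is not a result. The differences between groups were not used to choose them, although a gene can pass through the group where it is high: 69 of the 85 were above the threshold in all 3 groups, 11 in 2 groups and 5 in 1 group (Mir1931, Mir1983, Mir219a-1, Mir3080 and Mir467e).

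Total RNA of mouse embryonic stem cells was hybridized to Affymetrix whole-transcript arrays. The cells were the Nanog-GFP (NG4) reporter line, of 129/Sv background, grown with LIF on gelatin, and all 9 samples had received a lentivirus and 2 µg/mL puromycin for 72 h. The 3 groups of 3 samples differ by the hairpin the virus carries: shPhf5a, against a PHD-finger protein of the SF3b splicing complex, shPaf1, against a subunit of the Paf1 elongation complex, and shControl. Each group rests on 1 hairpin in 1 reporter line, and the labels do not state whether replicates came from separate transductions, so a p-value here reflects only how these samples spread, and that spread could be technical.

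A microRNA is cut from a longer primary transcript. Drosha with Dgcr8 releases a hairpin in the nucleus, Xpo5 exports it, Dicer1 trims it to a short duplex, and an Argonaute protein takes up a strand and uses its seed, the bases near the 5′ end, to find target messages. Many microRNA genes lie in introns of protein-coding or noncoding host genes, and many are clustered on a shared primary transcript. In mouse embryonic stem cells the miR-290 cluster is known as a dominant source of microRNAs, and the miR-17 cluster as a source of microRNAs that favour proliferation. The labelling used here starts from total RNA and copies transcripts into cDNA, so a probe set named for a microRNA gene may report the primary transcript, a host transcript or another RNA with the same sequence. It is not a measure of the mature microRNA.

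RefSeq (GRCm38.p6) gave hairpin sequences for 61 of the 85 genes and mature sequences for 69. The hairpins of 4 genes are shown because they belong to clusters that embryonic stem cells are known for. Mature arms are in capitals. Mir290a lies on chr7:3218626-3218708 (plus strand), Mir18 on chr14:115043851-115043946 (plus), Mir19a on chr14:115044000-115044081 (plus) and Mir106b on chr5:138165737-138165818 (minus).
Mir290a: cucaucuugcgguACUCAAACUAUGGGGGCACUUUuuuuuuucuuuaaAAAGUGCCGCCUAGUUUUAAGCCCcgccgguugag
Mir18: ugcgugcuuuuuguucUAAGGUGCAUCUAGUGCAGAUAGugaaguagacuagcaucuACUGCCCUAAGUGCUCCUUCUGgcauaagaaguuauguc
Mir19a: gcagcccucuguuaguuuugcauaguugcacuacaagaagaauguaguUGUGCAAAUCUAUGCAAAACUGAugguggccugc
Mir106b: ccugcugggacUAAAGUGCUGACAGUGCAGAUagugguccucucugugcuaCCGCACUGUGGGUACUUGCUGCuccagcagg

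The seeds of these 4 genes all differ, and are printed with bases 2 to 8 of the mature microRNA in capitals. The letters AAGUGC start at base 2 of miR-290a-3p and at base 3 of miR-106b-5p.
miR-290a-3p: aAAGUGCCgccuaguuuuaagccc
miR-106b-5p: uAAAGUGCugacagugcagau
miR-18a-5p: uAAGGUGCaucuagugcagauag
miR-19a-3p: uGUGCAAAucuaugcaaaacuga
The word AAGUGC occurred in 3 of the 108 mature sequences, the third being miR-18a-3p, where it starts at base 9. Among the 108 sequences 105 different seeds were found, and 3 of them were shared by a pair of genes (Mir181c with Mir181d, Mir680-1 with Mir680-2, and Mir3473d with Mir674). These sequences cover 69 of the 85 genes and none of the 9 inside Sfmbt2. How far the genes of those related families share seeds is therefore not shown.

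Other genes that the results below turn on have the following mature sequences, again with the seed in capitals. They are printed because most of them have no textbook role and the sequence is what identifies them. Their positions are chr13:21896930-21896950 (minus strand) for miR-1983, chr9:3038680-3038698 (minus) for miR-101c, chr1:34433130-34433149 (minus) for miR-5103, chr11:96265187-96265208 (plus) for miR-196a-5p, chr7:101475382-101475403 (plus) for miR-139-5p, chr17:23823339-23823358 (plus) for miR-5125 and chr11:77078122-77078144 (minus) for miR-423-5p. Those of miR-1199-5p and miR-677-5p are chr8:84011594-84011613 (minus) and chr10:128085291-128085312 (plus). miR-680 has copies on chr6:129691541-129691561 (plus, Mir680-1) and chrX:144297790-144297810 (plus, Mir680-2).
miR-1983: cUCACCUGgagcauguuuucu
miR-101c: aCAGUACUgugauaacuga
miR-5103: uCAUCCGGgauccccugagg
miR-196a-5p: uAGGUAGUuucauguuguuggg
miR-139-5p: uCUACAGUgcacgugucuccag
miR-5125: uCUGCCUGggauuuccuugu
miR-423-5p: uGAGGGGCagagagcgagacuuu
miR-1199-5p: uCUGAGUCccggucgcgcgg
miR-677-5p: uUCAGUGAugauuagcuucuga
miR-680: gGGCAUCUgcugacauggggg

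Before the comparisons, the hairpin targets were checked. Phf5a stood at 34.4, 55.9 and 39.6% of the shControl mean in shPhf5a replicates 1 to 3, a log2 difference of -1.24 ± 0.16 (SE, limma adjusted p = 0.00024). Paf1 stood at 37.7, 38.9 and 38.0% in shPaf1, a log2 difference of -1.39 ± 0.08 (limma adjusted p = 1.73e-06). Both hairpins went with a smaller fall of the second target too. Phf5a stood at 64.3, 62.0 and 76.2% in shPaf1 (-0.57, limma adjusted p = 0.0183), and Paf1 at 76.5, 95.7 and 81.8% in shPhf5a (-0.25, limma adjusted p = 0.0267). The direct comparison of the knockdowns is therefore between groups that share a reduction of both messages, of different size. In every group 11 of 12 embryonic stem cell markers lay above the median of all genes, their mean over an array being 10.3 to 10.5 in shPhf5a, 10.2 in shPaf1 and 10.7 in shControl. Against shControl 9 of the 12 were lower in each knockdown at a limma adjusted p under 0.05. Higher were 1 in shPhf5a and 0 in shPaf1. Trophoblast markers averaged 7.38 to 7.54 per array in shPhf5a, 7.09 to 7.20 in shPaf1 and 6.71 to 6.79 in shControl (10 genes, 8, 8 and 4 of them above the median). Primitive endoderm markers averaged 7.88 to 8.20 in shPhf5a, 8.0 to 8.02 in shPaf1 and 7.41 to 7.49 in shControl (10 genes). Fibroblast markers averaged 6.51 to 6.58 in shPhf5a, 6.71 to 6.77 in shPaf1 and 6.47 to 6.48 in shControl (11 genes). By the same test 8 trophoblast markers were higher and 0 lower in shPhf5a, and 6 higher and 1 lower in shPaf1. Of the primitive endoderm markers 7 were higher and 0 lower in each knockdown. Of the fibroblast markers 2 were higher in shPhf5a and 4 in shPaf1, with 0 lower in either. Fewer cells of a type and less RNA per cell cannot be told apart in such bulk samples, and the part of these markers in the differences below was not tested.

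The 85 genes ranged from Mir5099, at a mean of 13.4, down to the threshold. The next brightest were Mir692-1 (12.2), Mir449b (12.1), Mir1949 and Mir703 (10.6 each), Mir5125 (10.1), Mir1195 (9.68), Mir1191 (9.23), Mir680-2 (9.22) and Mir1954 (9.20). Their median was 7.65, against 5.04 for the other 398 microRNA genes. At the edge, Mir1932 (6.70), Mir1931 (6.70) and Mir219a-1 (6.71) were just inside, and Mir3097 (6.69), Mir5098 (6.68) and Mir540 (6.66) just outside. Within 0.5 log2 units of the threshold lay 24 of the 85 genes, and 40 lay more than 1 unit above it. Levels of different probe sets depend on the probes and do not rank the transcripts.

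**Figure D1:**
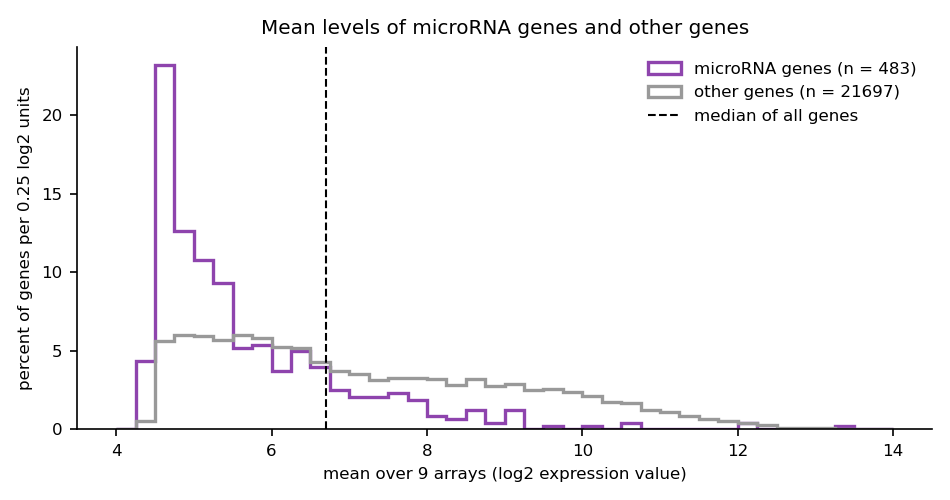
Mean log2 expression value over the 9 arrays (x axis) against the percent of genes per bin of 0.25 log2 units (y axis), for the 483 microRNA genes and for all other genes. Most microRNA genes pile up below 6.70, the median of all genes drawn as a dashed line, and the 85 bright ones form the tail to its right.

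Neither the let-7 family, which is known for its low mature level in pluripotent cells, nor the cluster of Mir302a to Mir302d and Mir367 had a bright gene (0 of 12 and 0 of 5). The same held for the miR-34 family (0 of 3) and for the measured genes of the miR-106a cluster (0 of 5). Of all 483 microRNA genes 17.6% were bright, so nothing is read from these counts. The probe sets do not measure mature let-7. The bright genes with a textbook role included Mir210, the hypoxia-induced microRNA gene, Mir375, known from pancreatic islets, and Mir15a, of a cluster that restrains the cell cycle. None of these 3 passed the test in any comparison. Mir210 was the steadiest of them, at 7.28, 7.35 and 7.17 in shPhf5a, 7.28, 7.33 and 7.22 in shPaf1, and 7.25, 7.28 and 7.29 in shControl.

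The bright microRNA genes had a larger median within-group SD, 0.172 log2 units, against 0.0888 over all genes and 0.0966 over the 11090 genes above the median. By position, 32 of the 85 lay inside a gene on the same strand and 22 inside a gene with a strand not given in the tables used. Another 5 lay only opposite a gene, and 26 lay wholly inside no gene. Chromosome 2 held 12 of them, 9 of these inside Sfmbt2. The GC content of the 61 hairpins ran from 31.2 to 74.8%, with a median of 57.3%, against 47.3% in the 339 hairpins of dimmer microRNA genes. Across the 61 hairpins GC content and level had a Pearson r of -0.22 (across genes, which are not independent). The level chose these genes and so covers a restricted range, and nothing is read from this r.

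The first comparison asks what loss of Phf5a does to these transcripts. In shPhf5a 21 of the 85 genes were higher and 9 lower than in shControl. Over all genes the limma test called 16.7% higher and 20.7% lower at an adjusted p under 0.05, which is 37.4% in either direction against 30 of the 85. Mir101c, Mir196a-1, Mir680-1, Mir5103 and Mir290a rose by at least 2-fold, and Mir1983 and Mir19a fell by at least 2-fold. Of all genes 2.07% rose and 1.22% fell that far, but nothing is read from these counts, because 4 of the 5 rises (all but Mir290a) and the fall of Mir1983 were in genes whose lower group lay below the threshold of 6.70, so that they entered the set through the group where they are high. Of all 21 higher and 9 lower genes this held for 8 and 3. The median difference of the 85 was 0.05, against -0.03 for all genes, and 36 of the 85 had arrays that did not overlap between the groups (45.8% of all genes). Among genes above the median that are no microRNA genes, 26.9% were higher and 35.4% lower.

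Mir5103 had 7.68, 7.58 and 7.73 in shPhf5a, against 6.32, 6.40 and 6.75 in shControl. All shPhf5a arrays were above all shControl arrays, and the difference was 1.18 ± 0.10 (SE, limma adjusted p = 2.45e-05). In shPaf1 the gene was at 7.0, 7.01 and 6.91, between the other groups without overlap. It lies wholly inside no other annotated gene.

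Mir196a-1 sits in the Hox B cluster, and its microRNA is known to repress Hox messages. It stood at 7.63, 7.88 and 8.28 in shPhf5a, against 6.36, 6.80 and 6.78 in shControl, a difference of 1.28 ± 0.17 (limma adjusted p = 0.000233). The shPaf1 arrays, at 6.84, 6.65 and 6.90, overlapped the shControl arrays. The direct difference between shPhf5a and shPaf1 was 1.13 (limma adjusted p = 0.00068), so the rise differed between the knockdowns.

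Mir101c rose most in both knockdowns. Its values were 7.40, 6.95 and 7.82 in shPhf5a, 7.79, 6.90 and 6.72 in shPaf1, and 6.09, 5.82 and 5.99 in shControl. The shControl arrays were the lowest and the knockdown arrays scattered widely. The differences were 1.42 and 1.17, each ± 0.28 (limma adjusted p = 0.00251 and 0.00768).

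Mir680-1 and Mir680-2 give the same mature sequence from chromosomes 6 and X, and their hairpins are 82.8% identical over 116 aligned positions, so the probe sets may share RNA. Both rose in shPhf5a, Mir680-1 by 1.19 ± 0.22 and Mir680-2 by 0.88 ± 0.22 (limma adjusted p = 0.00171 and 0.0112). Mir680-2 had 10.14, 9.04 and 9.79 in shPhf5a, against 8.78, 8.69 and 8.85 in shControl. The replicate 2 array was the lowest of the shPhf5a group for both. Other rises were those of Mir5123 (0.93), Mir27a of the miR-23a cluster (0.78) and Mir1192 (0.72).

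Of the falls in shPhf5a, that of Mir1983 was the deepest, at -1.76 ± 0.15 (limma adjusted p = 2.22e-05). It read 6.13, 6.76 and 6.39 in shPhf5a, 6.15, 6.41 and 6.53 in shPaf1, and 8.10, 8.21 and 8.24 in shControl. Both knockdowns lay far below shControl and overlapped each other, and the difference in shPaf1 was -1.82 ± 0.15 (limma adjusted p = 1.27e-05). In the RefSeq gene table the whole tRNA gene n-TItat14 lies inside the Mir1983 hairpin, and a probe set there may report either. Mir1983 was bright only through the shControl group, so that it could enter the set only by being higher there.

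Mir139 is an intronic gene of Pde2a, and its microRNA is known as a growth-restraining one. It had 7.46, 7.76 and 7.48 in shPhf5a, against 8.69, 8.36 and 8.52 in shControl, a difference of -0.95 ± 0.11 (limma adjusted p = 0.000144). In shPaf1, at 8.29, 8.0 and 8.04, it fell less (-0.41, limma adjusted p = 0.0163), a call lost on leaving out shControl replicate 1, or either replicate 2 or replicate 3 of shPaf1. The direct difference of -0.54 passed the test as well (limma adjusted p = 0.00528).

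Mir1199 and Mir677 fell in both knockdowns. Mir1199 had 7.69, 7.79 and 7.33 in shPhf5a, 7.26, 7.24 and 7.37 in shPaf1, and 8.51, 8.47 and 8.51 in shControl. Mir677 had 7.32, 7.66 and 7.61 in shPhf5a, 6.88, 7.03 and 7.34 in shPaf1, and 8.16, 8.16 and 8.17 in shControl. The shControl arrays agreed within 0.05 for each gene and stood above every knockdown array. The smaller falls in shPhf5a were those of Mir1945 (-0.45), Mir666 (-0.34), Mir3093 (-0.32) and Mir219a-1 (-0.25). Each of these 4, and the rise of Mir1192, lost its call in at least 3 of the 18 alternative fits.

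shPhf5a replicate 2, in which the target was reduced least, also changed least here. Over the 21 genes called higher the mean difference from shControl was 0.78, 0.52 and 0.89 in shPhf5a replicates 1 to 3, and over the 9 called lower it was -0.90, -0.53 and -0.85. Leaving out replicate 2 of shPhf5a left 26 higher and 10 lower.

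**Figure D2:**
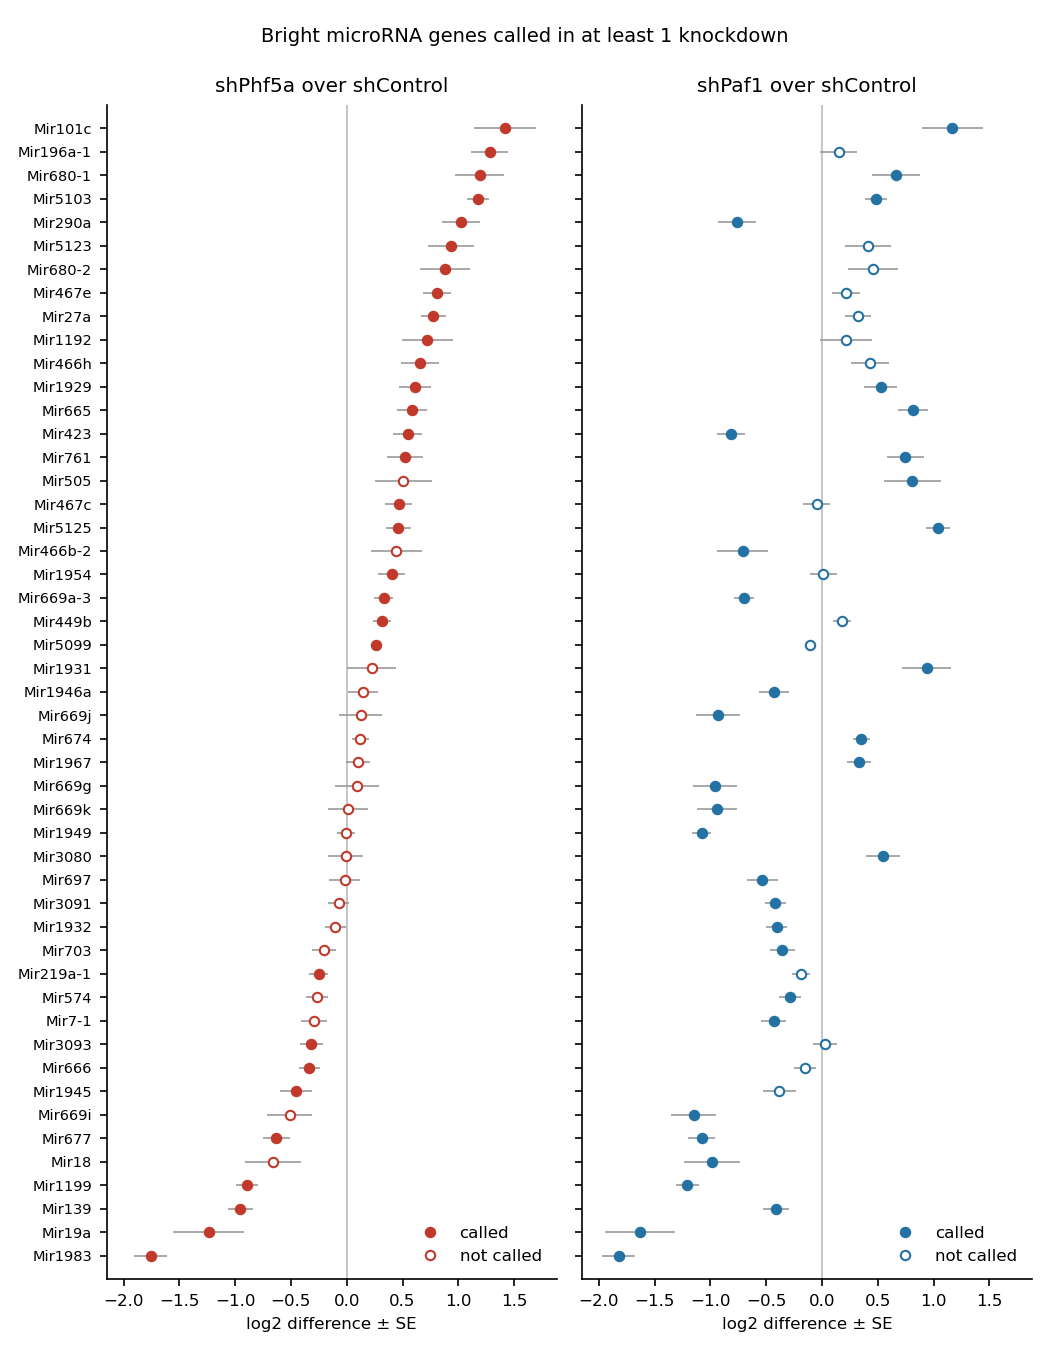
Log2 difference ± SE (x axis) of the 49 bright microRNA genes called in at least 1 knockdown, with shPhf5a over shControl on the left and shPaf1 over shControl on the right, ordered by the left panel. Filled points passed the limma test at an adjusted p under 0.05. Mir290a, Mir423 and Mir669a-3 are filled on opposite sides of 0, and Mir1983 is at the bottom of both panels.

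The second comparison asks the same of Paf1. In shPaf1 12 of the 85 genes were higher and 22 lower than in shControl, where 18.0% of all genes were called higher and 17.8% lower (35.8% in either direction, against 34 of the 85). At least 2-fold, 2 rose (Mir101c and Mir5125) and 6 fell (Mir1983, Mir19a, Mir1199, Mir669i, Mir1949 and Mir677), against 1.91% and 0.978% of all genes. The lower group lay below the threshold in 7 of the 12 higher genes, Mir101c among them, and in 3 of the 22 lower ones, Mir1983 among them. The median difference was -0.05, and -0.01 over all genes. Arrays did not overlap for 46 of the 85 (48.3% of all genes). Outside Sfmbt2 the counts were 12 higher and 16 lower of 76. Of genes above the median that are no microRNA genes, 29.3% were higher and 30.7% lower in shPaf1.

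Mir5125 lies inside Srrm2, which encodes a splicing-associated protein. It stood at 10.45, 10.61 and 10.73 in shPaf1, against 9.45, 9.61 and 9.62 in shControl, a difference of 1.04 ± 0.11 (limma adjusted p = 6.47e-05). In shPhf5a, at 10.08, 9.78 and 10.20, it lay between them (0.46, limma adjusted p = 0.00822). Srrm2 itself was higher by 0.33 in shPaf1 and by 0.38 in shPhf5a.

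The other large rises in shPaf1 were those of Mir1931 (0.94), Mir665 (0.81), Mir505 (0.81), Mir761 (0.75), Mir680-1 (0.66), Mir3080 (0.55), Mir1929 (0.52) and Mir5103 (0.48). The calls of Mir505, Mir680-1, Mir3080 and Mir1929 were lost in 6, 6, 3 and 4 of the 18 alternative fits, mostly on leaving out 1 array. Mir665 belongs to the imprinted microRNA region of chromosome 12 and rose in both knockdowns, with 7.23, 6.85 and 7.16 in shPhf5a, 7.49, 7.16 and 7.28 in shPaf1, and 6.34, 6.40 and 6.74 in shControl. Others of that region did not follow. Mir666 fell in shPhf5a and was not called in shPaf1 (-0.15), and Mir341, Mir329 and Mir673 passed no test in either knockdown, with differences between -0.17 and 0.26.

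Mir1949, which overlaps the small nucleolar RNA host gene Snhg4, fell in shPaf1. It had 9.74, 9.98 and 9.89 in shPaf1, against 10.84, 11.07 and 10.94 in shControl, a difference of -1.08 ± 0.08 (limma adjusted p = 8.82e-06). In shPhf5a it stood at 10.85, 11.03 and 10.96, within the shControl range (difference 0.00). The direct difference was 1.08 (limma adjusted p = 1.77e-05). Snhg4 was lower by 0.40 in shPaf1.

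The miR-290 cluster was the clearest case of opposite directions. Mir290a had 9.62, 10.27 and 10.21 in shPhf5a, 8.18, 8.52 and 8.05 in shPaf1, and 9.10, 8.99 and 8.93 in shControl. No arrays of any of the 3 groups overlapped. The difference from shControl was 1.02 ± 0.17 in shPhf5a, a 2.03-fold rise (limma adjusted p = 0.00102), and -0.76 ± 0.17 in shPaf1, a 1.69-fold fall (limma adjusted p = 0.00575). Directly, shPhf5a exceeded shPaf1 by 1.78 ± 0.17 (limma adjusted p = 5.91e-05). The other hairpins of the cluster are on a probe set listed with several symbols, which is no part of the 85. It read 9.39, 9.61 and 9.67 in shPhf5a, 7.82, 7.88 and 8.01 in shPaf1, and 8.59 on each shControl array, differences of 0.96 and -0.69. The groups were again in the same order without overlap.

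Reported targets of the miR-290 and miR-302 families were set beside it. Of 12 measured, 8 were higher and 1 lower in shPhf5a, and 7 were higher and 0 lower in shPaf1 (0 lower at an unadjusted limma p under 0.05). Of all genes 16.7% were higher and 20.7% lower in shPhf5a, and 18.0% and 17.8% in shPaf1. The cell cycle inhibitor Cdkn1a (1.32 in shPhf5a, 1.04 in shPaf1) and the Hippo kinase gene Lats2 (1.10 and 1.23) rose in both knockdowns. Rhoc, a small GTPase gene, fell by 1.17 in shPhf5a and was 0.68 higher in shPaf1. The median of the list was 0.56 and 0.47, against -0.03 and -0.01 for all genes.

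The miR-17 cluster had 2 bright genes. Mir19a had 6.50, 7.91 and 7.15 in shPhf5a, 6.32, 6.89 and 7.17 in shPaf1, and 8.43, 8.52 and 8.33 in shControl. It fell by 1.24 ± 0.32 in shPhf5a (limma adjusted p = 0.0112) and by 1.63 ± 0.32 in shPaf1 (limma adjusted p = 0.00242). Every knockdown array was below every shControl array. Mir18 had 7.46, 8.41 and 7.86 in shPhf5a, 7.08, 7.73 and 7.92 in shPaf1, and 8.48, 8.69 and 8.53 in shControl. Its difference of -0.66 in shPhf5a did not pass the test (limma adjusted p = 0.0674), and that of -0.99 in shPaf1 did (limma adjusted p = 0.0112). The several-symbol probe set of Mir17hg, Mir19b-1 and Mir92-1 had differences of -0.46, which was not called, and -1.19, which was. Mir19a and Mir18 differed by 0.40 and 0.33 between shPhf5a and shPaf1, neither past the test. Mir106b of the related cluster in Mcm7 passed no test, with differences of 0.26 and -0.07.

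**Figure D3:**
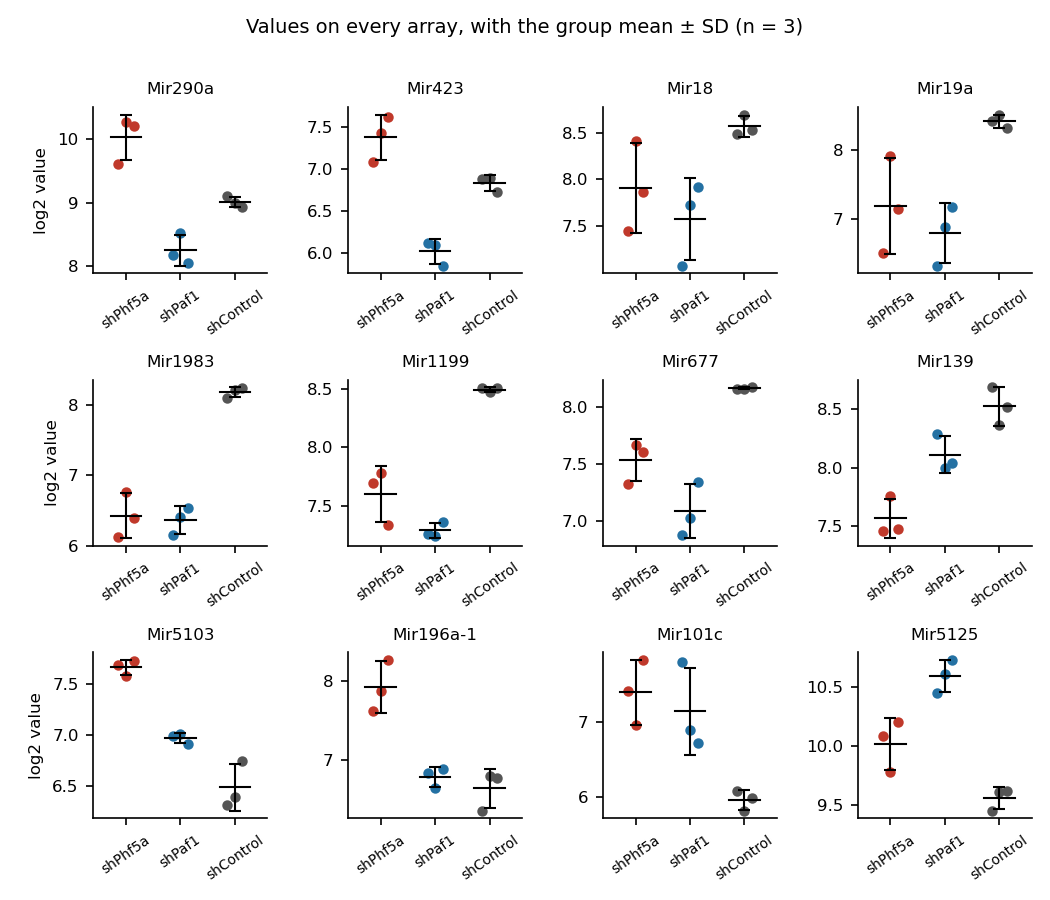
Log2 expression value (y axis, its own range in each panel) on every array of shPhf5a, shPaf1 and shControl for 12 bright microRNA genes, with the group mean as a line and the SD as bars (n = 3). For Mir290a and Mir423 shPhf5a is above and shPaf1 below shControl, and for Mir19a, Mir1983, Mir1199 and Mir677 both knockdowns are below it.

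Sfmbt2 carries a large rodent cluster of microRNA genes of the Mir466, Mir467 and Mir669 families in an intron, and 9 of the 85 genes belong to it. In shPaf1 6 of the 9 were lower: Mir669i (-1.15), Mir669g (-0.96), Mir669k (-0.95), Mir669j (-0.93), Mir466b-2 (-0.71) and Mir669a-3 (-0.70). Mir466b-2 lost its call when any 1 shControl array, or shPaf1 replicate 1 or 2, was left out. Mir466h (0.43), Mir467e (0.21) and Mir467c (-0.05) were not called. The host Sfmbt2 was also lower in shPaf1, by 0.60 (limma adjusted p = 0.000216).

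In shPhf5a the order within the cluster was another. Mir467e (0.81), Mir466h (0.65), Mir467c (0.47) and Mir669a-3 (0.33) were higher than in shControl, and the other 5 were not called, nor was Sfmbt2 (0.07). Mir669a-3 was the only 1 of the 9 called in both knockdowns. It had 7.96, 8.25 and 8.24 in shPhf5a, 7.02, 7.11 and 7.23 in shPaf1, and 7.74, 7.89 and 7.84 in shControl. All 3 groups were apart, with a direct difference of 1.03 ± 0.09 (limma adjusted p = 3.02e-05). Its rise in shPhf5a lost its call without shControl replicate 1 or shPhf5a replicate 3, that of Mir466h without shPhf5a replicate 3 and that of Mir467c without shControl replicate 1.

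The probe sets of this cluster are not independent measurements. The cluster has 41 probe sets with a single symbol, of 22 genes, and among the 27 of them with a mean above the median, 21 of 351 pairs differed by less than 0.05 on every array. The 27 belong to 9 genes, so a gene with several probe sets counts more than once below. Whether the 9 genes report separate transcripts was not tested. With all probe sets tested, 24 of these 27 were lower in shPaf1 and 0 higher (1 higher at an unadjusted limma p under 0.05), where 15.9% of all probe sets were lower and 14.4% higher. In shPhf5a 4 of the 27 were higher and 0 lower, with 1 lower at an unadjusted limma p under 0.05 (15.0% and 16.7% of all probe sets). Over all 41, dimmer ones included, 6 were higher and 1 lower in shPhf5a, and 0 higher and 29 lower in shPaf1.

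**Figure D4:**
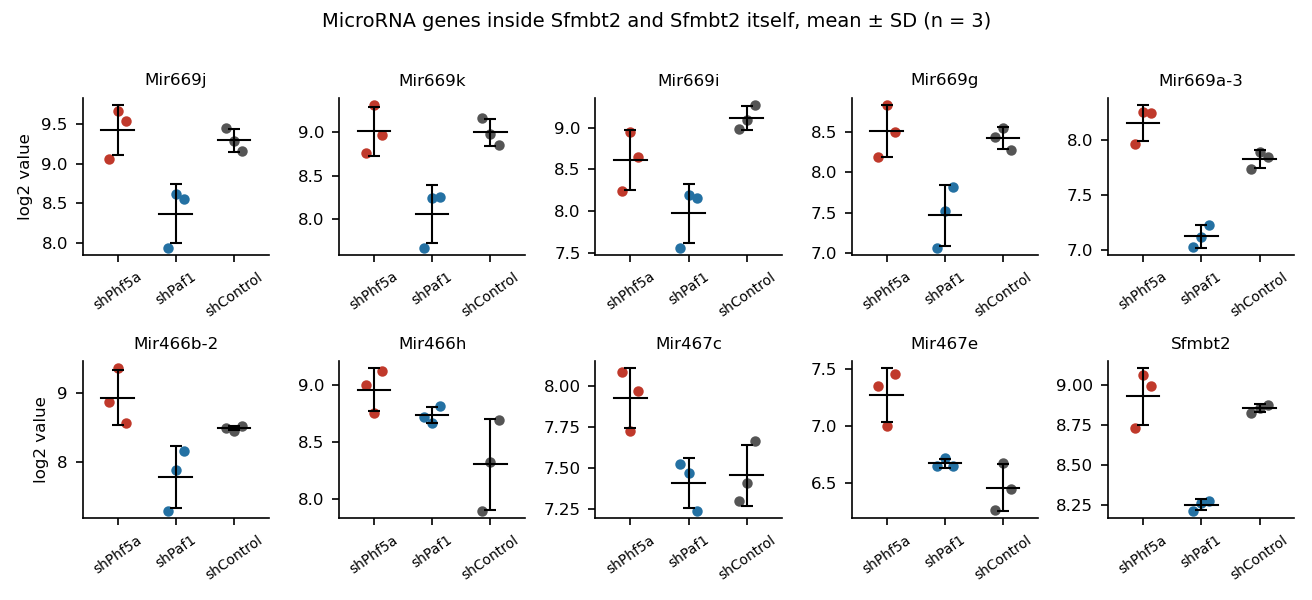
Log2 expression value (y axis, its own range in each panel) on every array for the 9 bright microRNA genes inside Sfmbt2 and for Sfmbt2, by group from shPhf5a to shPaf1 to shControl, with the mean and SD (n = 3). The shPaf1 arrays are lowest for the 5 Mir669 genes, Mir466b-2 and Sfmbt2, but not for Mir466h and Mir467e.

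Mir423 lies in Nsrp1, a gene for a splicing regulator. It had 7.08, 7.43 and 7.62 in shPhf5a, 6.12, 6.09 and 5.85 in shPaf1, and 6.89, 6.89 and 6.72 in shControl. It rose by 0.54 ± 0.13 in shPhf5a (limma adjusted p = 0.00734) and fell by 0.82 ± 0.13 in shPaf1 (limma adjusted p = 0.000692), with no overlap of arrays. Nsrp1 was called in the same directions, at 0.48 and -0.21. The shPaf1 mean of Mir423, 6.02, lay below the threshold. The gene thus entered the set through the groups where it is high.

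Pairs of microRNA gene and host were mostly not called alike. Of 30 same-strand pairs, Mir423 with Nsrp1 among them, both were called in the same direction in 3 in shPhf5a and 4 in shPaf1. They were called in opposite directions in 2 and 1. The host alone was called in 13 and 14 pairs and the microRNA gene alone in 4 and 7. Across the 30 pairs the differences had a Pearson r of -0.05 in shPhf5a and 0.19 in shPaf1, given as a description of pairs that share the same arrays. Igf2, the growth factor gene that holds Mir483, was higher by 1.87 and 2.61, while Mir483 differed by -0.02 and 0.27 and was not called. Atp5b, a gene of the mitochondrial ATP synthase, differed by -0.07 in each knockdown and was not called, while Mir677 inside it differed by -0.63 and -1.08. Pde2a, host of Mir139, was not called either (0.11 and -0.18). Mir5123 was 0.93 higher in shPhf5a, where its host B4galt1 was lower by 0.32.

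**Figure D5:**
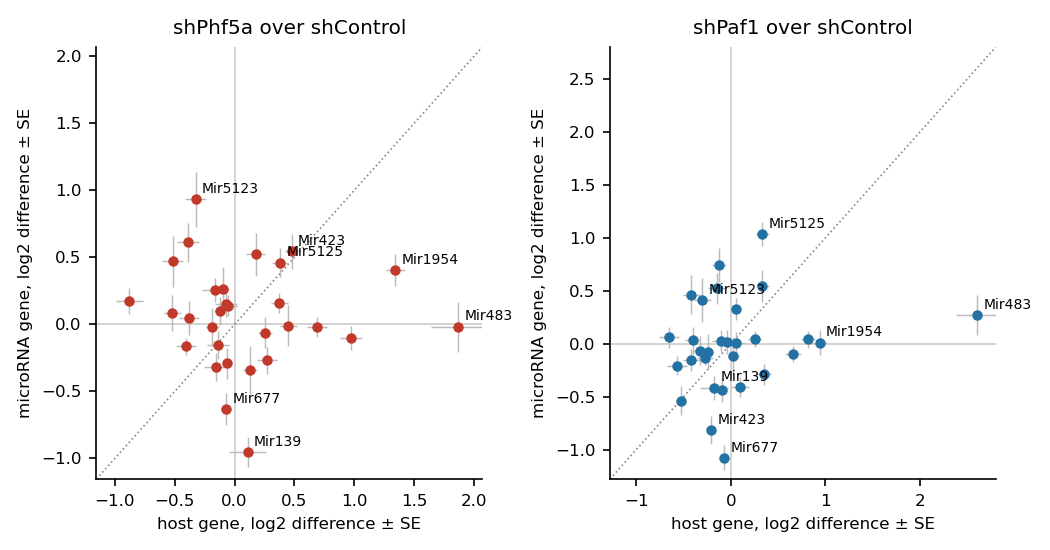
Log2 difference ± SE of the host gene (x axis) against that of the microRNA gene (y axis) for the 30 same-strand pairs, with shPhf5a over shControl on the left and shPaf1 over shControl on the right. The dotted line marks equal differences. Mir483 lies far from it because Igf2 rose by 1.87 and 2.61, and Mir677 and Mir139 lie below 0 with a host near 0.

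The comparisons with shControl share its 3 arrays, so their calls are given side by side only. Of the 85 genes, 36 were called in neither knockdown, 12 in both in the same direction, 3 in opposite directions (Mir290a, Mir423 and Mir669a-3), 15 in shPhf5a alone and 19 in shPaf1 alone. Over all genes these shares were 51.5% in neither, 22.6% in both in the same direction, 2.07% in opposite directions, 12.8% in shPhf5a alone and 11.1% in shPaf1 alone. The difference between the knockdowns itself passed the test for 7 of the 15 and 13 of the 19.

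Directly compared, 24 of the 85 genes were higher and 7 lower in shPhf5a than in shPaf1, where 12.7% and 16.3% of all genes were (29.0% in either direction). Of genes above the median that are no microRNA genes, 20.6% were higher and 27.6% lower. Arrays did not overlap for 31 of the 85 (37.7% of all genes). At least 2-fold, 8 of the 85 were higher and 0 lower (0.717% and 0.897% of all genes, 1.20% and 1.59% of genes above the median that are no microRNA genes). Of these 8, Mir466b-2, Mir669j, Mir669g and Mir669a-3 lie inside Sfmbt2, so they are not spread over separate loci. Mir423, another of the 8, had its lower group below the threshold. The lower group lay below the threshold in 3 of the 24 and 3 of the 7. The lowest of the 85 differences was -0.71. The 6 largest rises were those of Mir290a (1.78), Mir423 (1.36), Mir466b-2 (1.15), Mir196a-1 (1.13), Mir1949 (1.08) and Mir669j (1.05). The largest falls were those of Mir1931 (-0.71), Mir5125 (-0.58), Mir3080 (-0.56), Mir139 (-0.54), Mir1938 (-0.35) and Mir3093 (-0.34). Of these falls, those of Mir1931, Mir1938, Mir3080 and Mir3093 lost the call in 8, 10, 3 and 6 of the 18 alternative fits. Inside Sfmbt2 lay 8 of the 24, which leaves 16 of 76 outside it.

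Of 28 measured genes that make and use microRNAs, 9 were higher and 10 lower in shPhf5a, and 8 were higher and 8 lower in shPaf1. Of all genes 16.7% were higher and 20.7% lower in shPhf5a, and 18.0% and 17.8% in shPaf1. Among genes above the median that are no microRNA genes, 62.3% were called in either direction in shPhf5a and 60.0% in shPaf1, beside 19 and 16 of the 28 here. The nuclease gene Drosha was lower in shPhf5a (-0.45) and not called in shPaf1 (-0.17), and Dicer1 was slightly higher in both (0.20 and 0.31). The export receptor gene Xpo5 was not called in either. Ago2 was 0.28 higher in shPaf1 and not called in shPhf5a. Ago1 differed by 0.83 in shPaf1, where it was called, and by -0.21 in shPhf5a, where it was not. Tnrc6c, a partner of Argonaute, rose in both (0.82 and 1.10), and so did Ago3 (0.62 and 0.84). The helicase gene Ddx5 rose by 0.69 and 0.62, and the helicase gene Mov10 fell by 0.79 in shPhf5a and was not called in shPaf1 (0.08). Dgcr8 is on a probe set listed with Mir1306 as well, which differed by 0.13 and -0.14 and was not called.

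Of the 10 measured genes around Lin28 and let-7, 5 were higher and 3 lower in shPhf5a, and 4 were higher and 2 lower in shPaf1, beside the same shares of all genes (16.7% higher and 20.7% lower in shPhf5a, 18.0% and 17.8% in shPaf1). The uridyltransferase genes Tut4 (0.82 and 0.52) and Tut7 (0.59 and 0.97) were higher in both. Lin28b, which blocks let-7 maturation, was lower in shPhf5a (-0.59) and not called in shPaf1 (-0.02). Lin28a passed neither test.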

How the data were processed

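The authors deposited 1 log2 expression value per probe set and array. The normalization software is not given in the sources used here; values of 4.35 to 13.7 and array medians of 6.22 to 6.31 were read as a log2 scale. Per the labels' protocols, 125 ng of total RNA per sample was converted to labelled cDNA with whole-transcript kits. The platform annotation listed 1 symbol for 23521 of 33793 probe sets, several for 1814 and none for 8458. No detection calls, scan dates or slides were used, so no batch was tested, and the number of arrays limits the precision.

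Samples were grouped by their titles. All 22180 genes were fitted with limma 3.58.1 (lmFit, eBayes) in R 4.3.3 over the 9 arrays, with 1 mean per group, two-sided, with Benjamini-Hochberg adjustment over all genes at 0.05; the script was tested on simulated data. A call means an adjusted p under 0.05. Sequences, strands and positions came from RefSeq tables (GRCm38.p6), matched by gene ID for all 85 genes. A host is a gene, other than a microRNA gene, that contains the whole microRNA gene in them. Genes that overlap it in part or lie inside it were not counted.

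The genes, lists and families were chosen with earlier results of these data known. Those named were the 10 brightest, 3 on each side of the threshold, the 10 largest called rises and falls per knockdown (6 and 6 for the direct comparison) with arrays that did not overlap, members of the named families, opposite calls, up to 6 called genes per list with the core processing genes, and hosts of named genes; any other gene was named after its values were seen. Alternatives were normalization, centring, filters, probe set rules, variance models, array weights, a replicate block and leaving out each array. Deviations of same-numbered samples from their group means were at most weakly correlated (r from -0.0578 to 0.106, 1 of 9 over 0.1). Such values cannot show whether these samples were prepared together, and the main fit did not pair them.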

Additional observations from a re-analysis of the deposited data

Results flagged for a closer look

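For 3 bright microRNA genes shPhf5a and shPaf1 were called in opposite directions against shControl, and the test of the difference between the knockdowns passed as well. Mir290a differed by 1.78 between shPhf5a and shPaf1 (9.62, 10.27 and 10.21, against 8.18, 8.52 and 8.05). Mir423 differed by 1.36 and Mir669a-3 by 1.03. All their shPhf5a arrays lay above, and all their shPaf1 arrays below, every shControl array. The arrays of 3 more genes were placed in the same way without a call in each knockdown: Mir466b-2 (direct difference 1.15), Mir3473d (0.46) and Mir5099 (0.37). Mir423 averaged 6.02 in shPaf1, below the threshold, and so entered the set through the groups where it is high. Groups of 3 are too small to test for a single outlying sample.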

How the results depend on the processing

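Of 255 tests (85 genes in 3 comparisons), 95 were called, 59 of these were called under all 18 alternatives, 36 lost the call under at least 1 (20 of them under an alternative other than leaving out an array) and 0 called differences changed sign; 39 uncalled ones were gained under at least 1. Counting only genes at least 1 log2 unit above the median left 9 higher and 2 lower in shPhf5a, 4 higher in shPaf1, and 15 higher and 3 lower in shPhf5a over shPaf1, since fewer genes were counted. Array weights gave 19 higher in shPaf1. In shPhf5a over shPaf1, all probe sets tested and only the 6 arrays compared gave 4 lower each; the cause was not tested. Leaving out 1 array gave 17 to 26 higher and 5 to 10 lower in shPhf5a (5 without shControl replicate 1), 8 to 16 higher and 16 to 25 lower in shPaf1 (8 higher without shControl replicate 1), and 17 to 27 higher and 2 to 8 lower in shPhf5a over shPaf1 (4 lower without shControl replicate 1, 3 without shPhf5a replicate 2, 2 without shPaf1 replicate 2 and 3 without shPaf1 replicate 3). The same gave -1.44 to -1.09 for Phf5a in shPhf5a and -1.41 to -1.37 for Paf1 in shPaf1. With the replicate number as a block there were 20 higher and 9 lower in shPhf5a, 13 and 21 in shPaf1, and 24 and 6 in shPhf5a over shPaf1. Counts outside Sfmbt2, an alternative chosen after seeing the data, were within 1.5 times of the whole. Signal over background is unknown here, and dim genes are compressed.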

Other observations

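Several-symbol probe sets that name a microRNA gene were 136, of which 70 had a mean above the median of all genes. Of these 70, 16 were higher and 13 lower in shPhf5a, 11 were higher and 27 lower in shPaf1, and 26 were higher and 8 lower in shPhf5a over shPaf1. With all probe sets tested, 15.0% of all were higher and 16.7% lower in shPhf5a, 14.4% and 15.9% in shPaf1, and 11.7% and 12.0% in shPhf5a over shPaf1. The probe set of H19 and Mir675, an imprinted noncoding gene and the microRNA within it, stood at 10.41, 10.02 and 10.49 in shPhf5a, 9.07, 9.13 and 8.98 in shPaf1, and 7.74, 7.64 and 7.69 in shControl, differences of 2.62 and 1.37. The groups were far apart. That of Mir25 and Mcm7 differed by -0.59 and -0.77, both called.

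Some dimmer microRNA genes changed more than most bright ones. Mir200b, of the epithelial miR-200 family, averaged 7.51 in shPhf5a, 5.97 in shPaf1 and 6.07 in shControl, a rise of 1.45 ± 0.13 in shPhf5a (limma adjusted p = 3.28e-05). Mir200a beside it rose by 0.59. Mir363 fell by 1.41 in shPhf5a and by 1.22 in shPaf1, and Mir18b fell by 1.51 in shPhf5a; both belong to the miR-106a cluster. Mir34a, a p53 target, rose by 0.92 in shPhf5a, and Mirlet7d by 0.81.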
